A study of Mus musculus with 8 samples.

Results

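The 39 protein-coding Hox genes of the mouse were followed through 8 peak lists from chromatin immunoprecipitation followed by sequencing (ChIP-seq). They were chosen by name alone, as every Hoxa, Hoxb, Hoxc and Hoxd gene that the GENCODE M21 annotation calls protein-coding, and they are 39 of the 21951 protein-coding genes on the chromosomes of the lists. The Hoxa cluster holds 11 of them, the Hoxb cluster 10, the Hoxc cluster 9 and the Hoxd cluster 9. The cells were E14Tg2a, an established line of mouse embryonic stem cells used between passages 37 and 40, either kept pluripotent in leukemia inhibitory factor (LIF) or grown as LIF-free monolayers with 1 µM retinoic acid (RA) for 48 h, which starts neuronal differentiation. Precipitated in both states were FGFR1, a receptor for fibroblast growth factors of which a nuclear form exists, and the nuclear receptors RXRα (RXR below) and Nur77, and in RA only also the histone variant H3.3. Of the 7 groups, 6 had a single library, and only FGFR1 in RA had a replicate, whose title names it as another experiment, so that replicate error can be seen for this group alone. Cells of several plates were pooled for each precipitation, all of them from 1 cell line, and peak lists carry no expression values by which the state of the cells could be checked.

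Hox genes encode homeodomain transcription factors that give cells their position along the body axis. Within a cluster the genes lie in the order of their paralogue groups and are transcribed in the same direction, and RA opens the clusters from the 3′ end, where the genes of the hindbrain and anterior spinal cord lie, towards the posterior genes at the 5′ end. RXR pairs with the retinoic acid receptors and with Nur77, and such pairs recognise repeats of a short hexamer in DNA.

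A peak was described by the values the authors deposited for it. The fold is the pileup of fragments at the highest point, the summit, over the local background, and the −log10 p is that of the same comparison, which had to exceed 5 for a peak to be listed. Both together gave the whole number of fragments at the summit for all peaks. A promoter was every base within 1000 bp of any transcript start, a gene body was the rest of the gene, and a gap was what lay between or beside the Hox genes. The lists held between 10634 peaks (H3.3) and 46137 peaks (FGFR1 in RA, replicate 1). Their depth, as the background density, was lowest for H3.3 with 1.27 fragments per kb and highest for RXR in LIF with 7.09. FGFR1 in RA replicate 2 stood apart from the other libraries, with peaks of 311 bp in the median, where those of replicate 1 had 89 bp, and with 84.4% of its peaks in promoters of any gene against 26.4% to 43.3% in the other 7 lists.

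The sequences that the results below turn on are printed here, 5′ to 3′ on the coding strand of the Hox gene named, from the mm10 (GRCm38) assembly. The first set shows where FGFR1 and RXR peaks lay at the 3′ end of the Hoxa cluster. The Hoxa2 shared stretch is chr6:52165135-52165214 (minus strand), upstream of the gene, where the peaks of RXR in LIF and of FGFR1 in RA replicate 1 overlapped, and its capital is the base at which both libraries had their summit. The Hoxa4 amplicon is chr6:52192070-52192209 (minus strand), also upstream of its gene. It is the stretch that the study's own primer pair for ChIP followed by PCR amplifies, with the primer sites in capitals.
Hoxa2 shared peak: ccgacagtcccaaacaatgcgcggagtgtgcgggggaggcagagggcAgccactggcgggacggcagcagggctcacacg
Hoxa4 amplicon: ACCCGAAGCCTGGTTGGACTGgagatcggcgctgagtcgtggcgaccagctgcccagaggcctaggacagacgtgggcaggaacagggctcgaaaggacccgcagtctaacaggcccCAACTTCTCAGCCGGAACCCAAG

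The second set shows the one place with a peak in all 8 lists, and the repeat-bearing place between Hox genes with peaks in the most lists. The Hoxd1 stretch is chr2:74763102-74763310 (plus strand) and starts at the first codon of Hoxd1, with capitals for the coding bases that lay under peaks of all 8 lists. The Hoxb13–Hoxb9 gap stretch is chr11:96253253-96253408 (plus strand), the H3.3 peak in that gap, with a run of alternating purines and pyrimidines in capitals.
Hoxd1 peak: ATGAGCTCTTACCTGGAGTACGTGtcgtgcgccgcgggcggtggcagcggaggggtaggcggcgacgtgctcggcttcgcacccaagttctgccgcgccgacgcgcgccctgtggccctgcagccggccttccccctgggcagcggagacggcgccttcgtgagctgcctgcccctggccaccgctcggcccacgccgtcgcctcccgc
Hoxb13-Hoxb9 gap peak: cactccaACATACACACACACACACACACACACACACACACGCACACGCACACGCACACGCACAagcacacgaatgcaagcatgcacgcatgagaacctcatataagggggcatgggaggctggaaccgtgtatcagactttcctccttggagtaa

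The third set holds the words that were searched. The first is a peak with the cyclic AMP response element TGACGTCA (capitals), at chr6:52253527-52253652 (minus strand), the Nur77 peak in RA between Hoxa11 and Hoxa13. The other 3 lines are direct repeats with a spacer of 5 bases (DR5), with the hexamers in capitals. They lie in the bodies of the paralogous genes Hoxa3 at chr6:52175533-52175549 (minus strand), Hoxb3 at chr11:96341236-96341252 (plus strand) and Hoxd3 at chr2:74741540-74741556 (plus strand), and none of them was under a peak.
Hoxa13 CRE peak: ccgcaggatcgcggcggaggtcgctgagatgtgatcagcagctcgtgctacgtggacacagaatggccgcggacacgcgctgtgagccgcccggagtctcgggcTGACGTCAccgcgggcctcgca
Hoxa3 DR5: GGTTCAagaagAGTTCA
Hoxb3 DR5: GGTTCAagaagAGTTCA
Hoxd3 DR5: GGTTCAagcagAGTTCA

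The 4 clusters with 5 kb on either side covered 531815 bp and held 185 of the 176687 peaks of the 8 lists. The Hoxa cluster (chr6:52155590-52260880, minus strand) and the Hoxb, Hoxc and Hoxd clusters (chr11:96194316-96368256, chr15:102921103-103036852 and chr2:74668310-74765142, plus strand) together had 4 peaks of FGFR1, 38 of RXR and 16 of Nur77 in LIF. In RA FGFR1 had 65 in replicate 1 and 18 in replicate 2, which gives a mean of 41.5 ± 33.2 (SD, n = 2). H3.3 had 8 there, Nur77 22 and RXR 14. Per length this was 1.80 times the density of the whole list for FGFR1 in LIF, 6.37 for RXR in LIF and 3.62 for Nur77 in LIF. In RA it was 3.86 times for H3.3, 4.34 for Nur77 and 4.71 for RXR, and 7.22 and 6.55 for FGFR1 in replicates 1 and 2. With the 4 clusters pooled, peaks were thus denser than over the genome in every list, and least so for FGFR1 in LIF. By single cluster, FGFR1 in LIF had no peak in Hoxa or Hoxc. Every other ratio lay between 1.04 for Nur77 in LIF in Hoxa and 10.1 for FGFR1 in RA replicate 2 in Hoxa. The density of the whole list was not matched for the share of promoters. Promoters took up 23.9% of the windows and 94 of the peaks, gene bodies 35.3% and 45 peaks, and gaps 40.8% and 46 peaks.

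Most Hox peaks rested on few fragments. The number at the summit ran from 4 to 75 with a median of 12, and 169 of the 185 peaks had fewer than 20. The −log10 p ran from 5.59 to 56.03 with a median of 10.22, and the fold from 4.11 to 17.7 with a median of 6.59. The summit lay in coding sequence for 78 of the 185 peaks, between Hox genes for 62, in an intron for 31 and in an untranslated exon for 13. The remaining summit was in a noncoding exon of Hoxa3. Peaks that touched each other formed 104 sites, of which 62 had a peak in 1 list, 22 in 2, 11 in 3, 5 in 4, 3 in 5 and 1, at Hoxd1, in all 8.

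**Figure D1:**
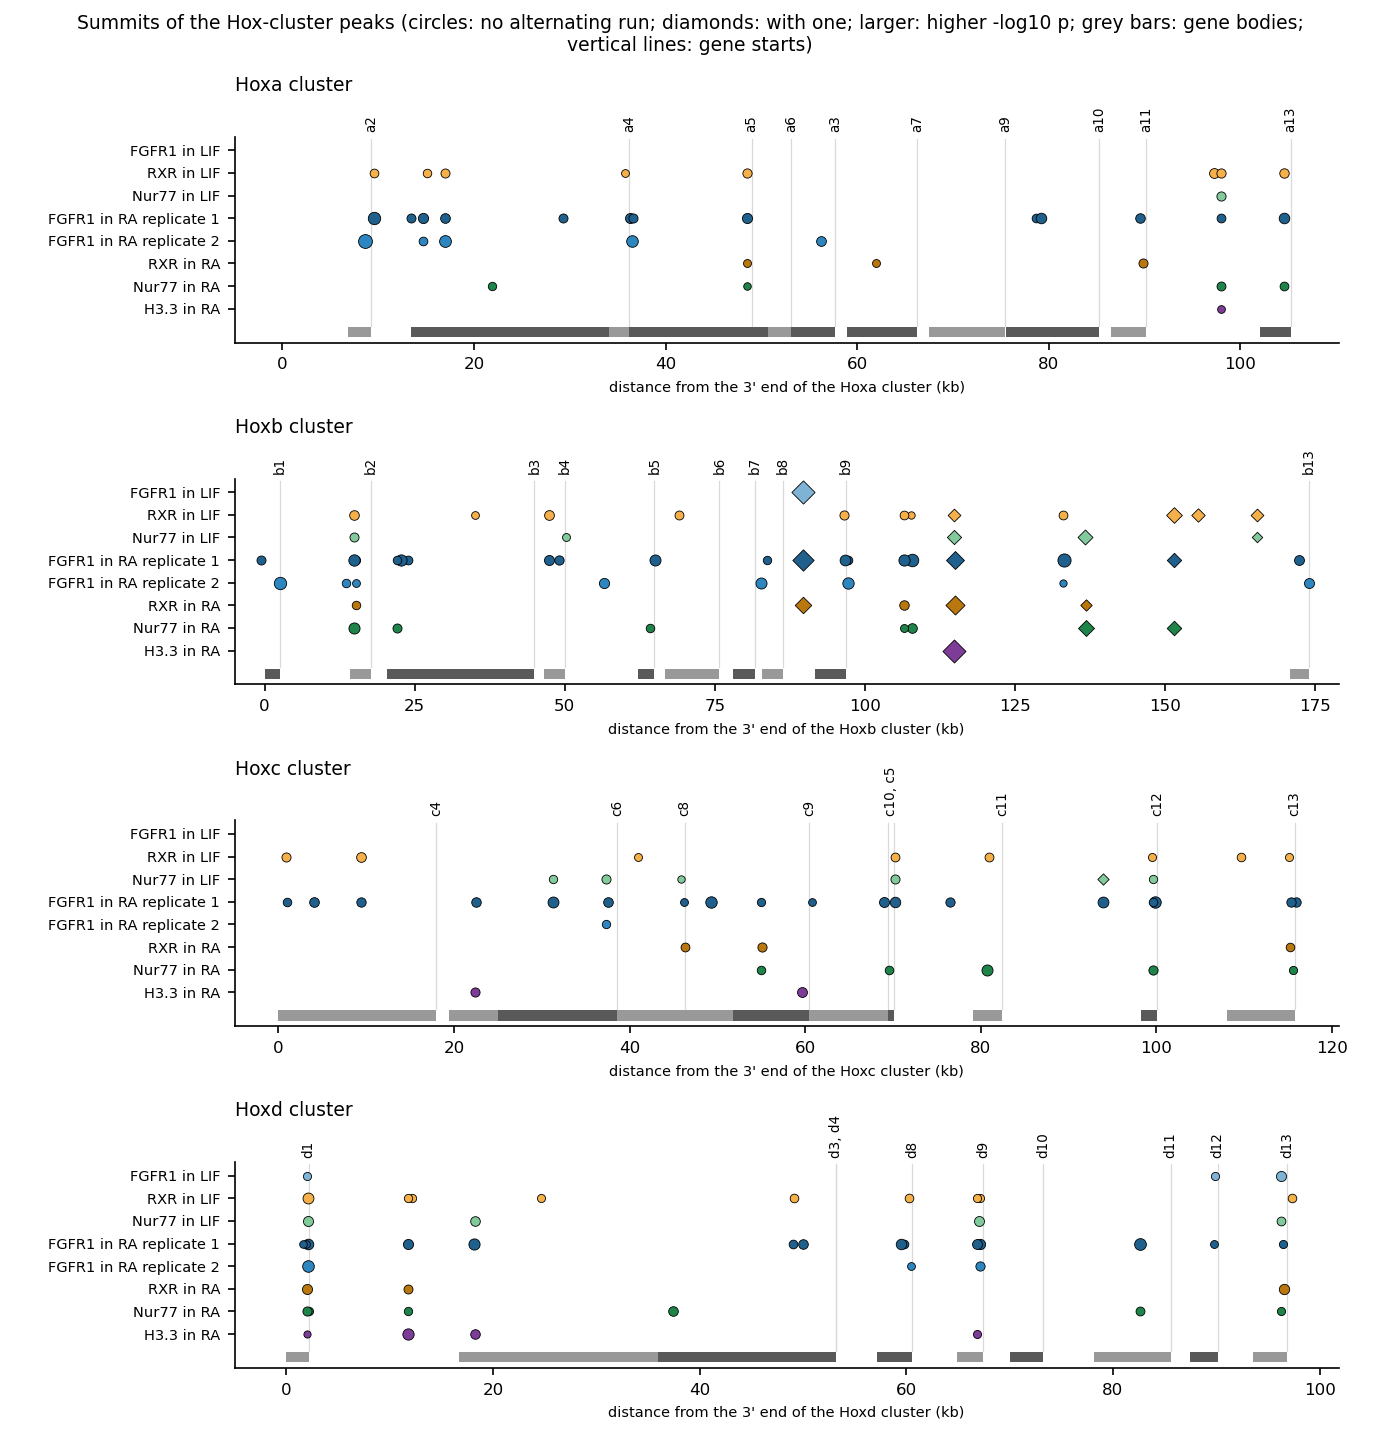
Each panel is 1 Hox cluster, with the distance in kb from its 3′ end on the x axis and the 8 lists as rows; points mark peak summits, larger for a higher −log10 p, and diamonds mark peaks with an alternating purine and pyrimidine run (38 of the 39 genes and their peaks are drawn). The Hoxd1 start is the only place with a point in all 8 rows, and 17 of the 18 diamonds are in the Hoxb cluster.

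Most promoter peaks lay just downstream of a transcript start, but most of those of FGFR1 in RA replicate 2 lay upstream. Of the 94 promoter peaks, 68 had their summit downstream of the nearest transcript start and 26 upstream or on it, and 53 summits were in coding sequence. In FGFR1 in RA replicate 2 the median summit lay 48 bp upstream of the start, with 7 of 11 upstream or on it. In replicate 1 it lay 271.5 bp downstream, with 8 of 34 upstream or on it. The median was 306 bp downstream for RXR in LIF, 257 bp for RXR in RA, 214.5 bp for Nur77 in LIF, 464 bp for Nur77 in RA, 264 bp for FGFR1 in LIF and 406.5 bp for H3.3.

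In LIF, FGFR1 had a promoter peak at 3 of the 39 Hox genes, where 17.0% of all 21951 genes had one. RXR in LIF had one at 16 (42.6% of all genes) and Nur77 in LIF at 9 (25.6%). In RA, FGFR1 had one at 24 Hox genes in replicate 1 (50.8% of all genes) and at 11 in replicate 2 (49.6%), a mean of 17.5 ± 9.19 (SD, n = 2). RXR in RA had one at 7 (23.4%), Nur77 in RA at 11 (25.9%) and H3.3 at 4 (15.5%). As shares of the 39 genes these counts were 7.69%, 41.0% and 23.1% in LIF and 61.5%, 28.2%, 17.9%, 28.2% and 10.3% in RA. The replicates of FGFR1 thus lay on opposite sides of the share of all genes. The 95% confidence interval of replicate 1, 44.6% to 76.6%, included that share, and that of replicate 2, 15.0% to 44.9%, did not. RXR in LIF and Nur77 in both states were within 3 percentage points of the share of all genes. FGFR1 in LIF (1.62% to 20.9%), RXR in RA (7.54% to 33.5%) and H3.3 (2.87% to 24.2%) were below it, with intervals that included it. The intervals take the genes as independent. For Hoxc5 and Hoxc10 this did not hold, since 1 peak counted for both in RXR in LIF, Nur77 in both states and FGFR1 replicate 1. For the other genes it was not tested. The intervals do not measure the spread between libraries and cannot serve as a test.

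**Figure D2:**
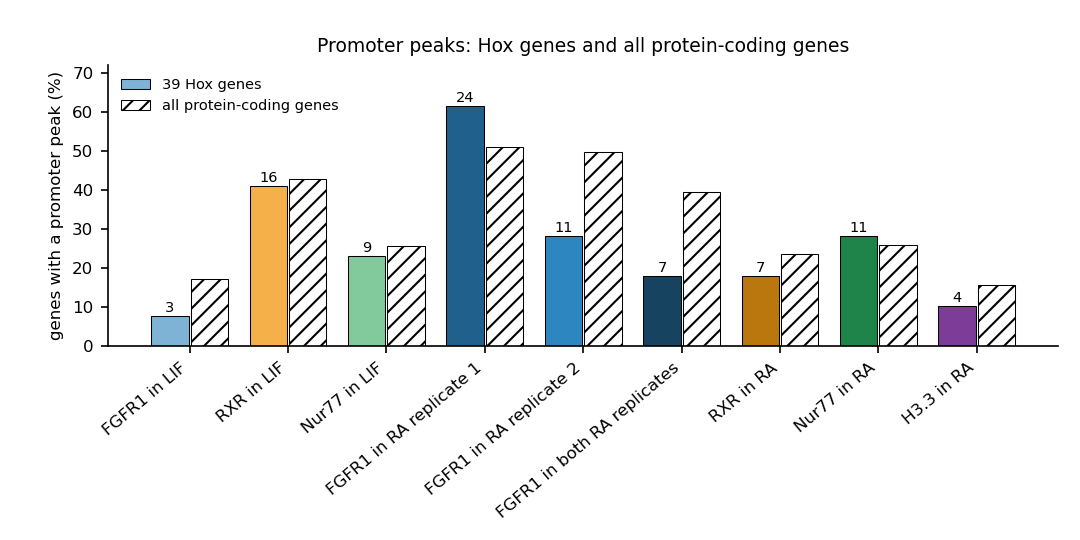
Bars give the percentage of genes with a promoter peak (y axis) in each list, and in both FGFR1 libraries from RA together, for the 39 Hox genes (filled, with their number above) and for all 21951 protein-coding genes (hatched). FGFR1 in RA is above its background in replicate 1, with 24 Hox genes. It is below its background in replicate 2, with 11, and in both replicates together, with 7. The 95% confidence interval of replicate 1, 44.6% to 76.6%, includes its background.

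Counted by gene, 7 Hox genes had no promoter peak in any list, a state shared by 34.5% of all genes. They were Hoxa6, Hoxa9, Hoxb2, Hoxb8, Hoxc4, Hoxc11 and Hoxd10, of which Hoxb2, Hoxb8, Hoxc4 and Hoxc11 had peaks in the gene body. A promoter peak in 1 list was found for 10 genes (10.5% of all genes), in 2 lists for 7 (10.3%), in 3 lists for 7 (10.4%) and in 4 lists for 4 (10.1%). Promoter peaks in 5 or more lists were found for 4 Hox genes, Hoxc5, Hoxd9, Hoxd13 and Hoxd1, against 24.3% of all genes. The last 3 lie in the Hoxd cluster, and Hoxc5 has a transcript start next to Hoxc10 with which it shares some of its peaks, but not that of H3.3.

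**Figure D3:**
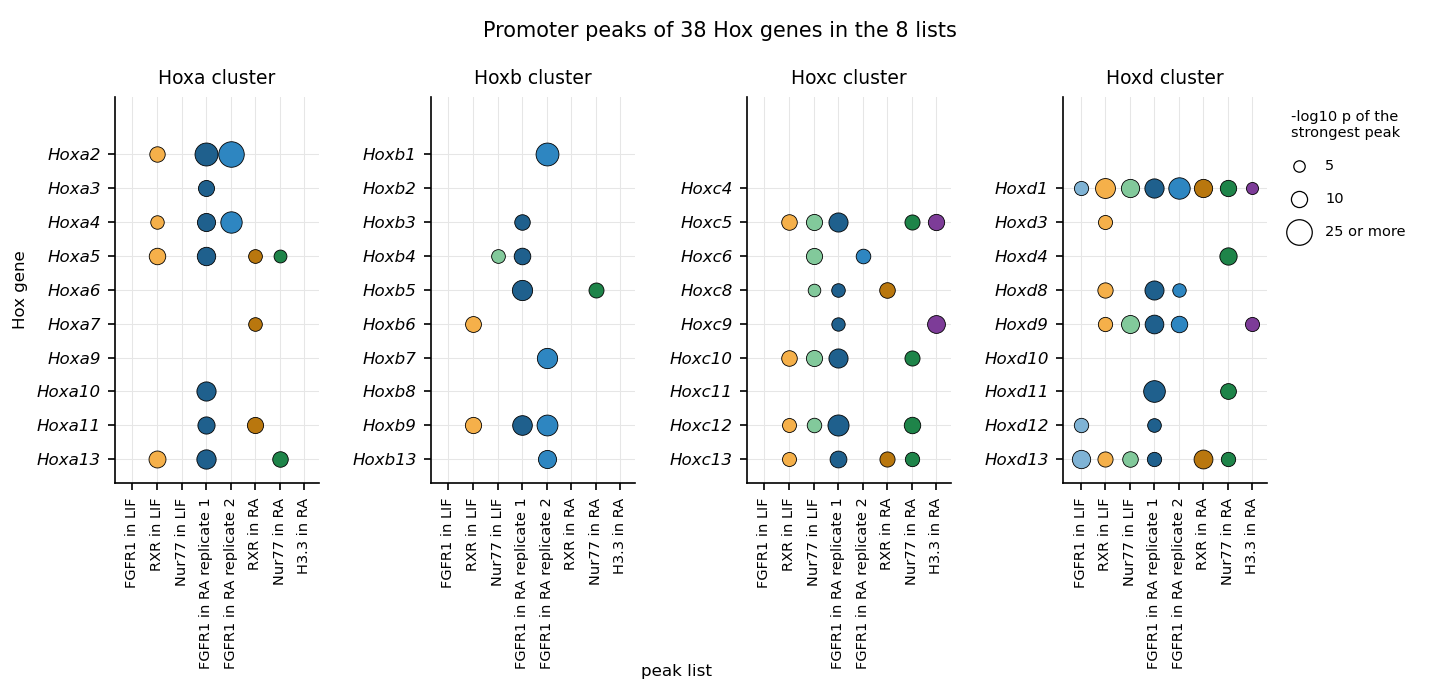
Each row is 1 of 38 Hox genes, ordered by paralogue group, and each column a peak list; a circle marks a promoter peak, and its area grows with the −log10 p of the strongest one. Hoxd1 has a circle in all 8 columns, and the largest circle is that of FGFR1 in RA replicate 2 at Hoxa2.

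Hoxd1, at the 3′ end of the Hoxd cluster (chr2:74762980-74765142, plus strand), was the only Hox gene with a promoter peak in all 8 lists. The share of all genes with such peaks was 2.93%, so peaks in every list were no trait particular to Hoxd1. In LIF the strongest peak there had a −log10 p of 7.75 for FGFR1 (7 fragments at the summit), 15.20 for RXR (16 fragments) and 12.80 for Nur77 (12 fragments). In RA it was 14.20 for FGFR1 in replicate 1 (13 fragments) and 17.62 in replicate 2 (20 fragments). For RXR in RA it was 12.84 (11 fragments), for Nur77 10.27 (10 fragments) and for H3.3 5.59 (4 fragments). The H3.3 peak was the weakest of the 185 Hox peaks, in the shallowest library. The strongest peaks of the 8 lists had their summits 69 to 175 bp downstream of the start. A stretch of 33 bases, at chr2:74763093-74763125, lay under all of them, and 24 of these are the first coding bases printed above. The promoter of Haglr, a noncoding RNA transcribed away from Hoxd1, lies in the same place and therefore also had a peak in all 8 lists.

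FGFR1 in LIF had its other Hox promoter peaks at the opposite end of the same cluster. At Hoxd13, which patterns the digits, the peak had a −log10 p of 12.93, a fold of 8.23 and 11 fragments, and its summit lay 613 bp downstream of the start. At Hoxd12 it had a −log10 p of 7.93 and 7 fragments, 264 bp downstream. In RA, replicate 1 had peaks at both genes, with a −log10 p of 7.87 at Hoxd13 and 7.17 at Hoxd12, and replicate 2 at neither. The summits of LIF and of replicate 1 were 258 bp apart at Hoxd13 and 112 bp apart at Hoxd12, and only at Hoxd1 did the peaks of the 2 lists overlap. The fourth FGFR1 peak in LIF was its strongest in the clusters and lay between Hoxb9 and Hoxb8, as described below.

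In RA, FGFR1 had a promoter peak in both replicates at 7 of the 39 Hox genes (17.9%), against 39.5% of all genes. Among the 7 were Hoxa2, Hoxa4, Hoxb9, Hoxd1, Hoxd8 and Hoxd9. In at least 1 replicate there were 28 (60.9% of all genes), and 11 Hox genes had none in either. In both replicates and not in LIF there were 6 (24.8% of all genes), since Hoxd1 had a peak in LIF too. By cluster, replicates 1 and 2 had 8 and 3 genes in Hoxa, 4 and 4 in Hoxb, 6 and 1 in Hoxc, and 6 and 3 in Hoxd. The 2 libraries differed in every cluster but Hoxb, where they had the same number and shared 1 gene, Hoxb9.

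At Hoxa2, which patterns the hindbrain and the second branchial arch, the libraries marked separate places. Replicate 1 had a −log10 p of 20.28, a fold of 10.3 and 21 fragments 336 bp upstream of the start. Replicate 2 had a −log10 p of 25.71, a fold of 7.30 and 43 fragments 575 bp downstream, in the intron, so the summits were 911 bp apart. At Hoxa4, replicate 1 had 2 peaks, with a −log10 p of 12.58 at 116 bp and of 10.10 at 422 bp upstream, and replicate 2 had one of 17.54 (25 fragments) at 292 bp upstream, which overlapped each of them by up to 54 bp. Both libraries thus marked the same place at Hoxa4 and not at Hoxa2.

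They shared a place at Hoxb9, Hoxd1 and Hoxd9 too. At Hoxb9, a gene of the thoracic level, the upstream peaks had a −log10 p of 8.80 in replicate 1 and 16.69 in replicate 2, with an overlap of 166 bp, and replicate 1 had a further peak of 14.80 in the coding sequence. At Hoxd1 the strongest peaks overlapped by 206 bp with summits 8 bp apart. At Hoxd9 the peaks had a −log10 p of 13.42 in replicate 1 and 10.44 in replicate 2 and shared their summit base, 308 bp downstream of the start. At Hoxd8 the 2 peaks of replicate 1, the stronger with a −log10 p of 13.97, lay at least 618 bp from that of replicate 2, with 6.95. Over the 7 genes, overlapping peaks were thus found at 4. Over the clusters, 8 of the 18 peaks of replicate 2 overlapped a peak of replicate 1 (44.4%, against 58.4% of its whole list), and 9 of the 65 of replicate 1 overlapped one of replicate 2 (13.8%, against 20.6%).

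**Figure D4:**
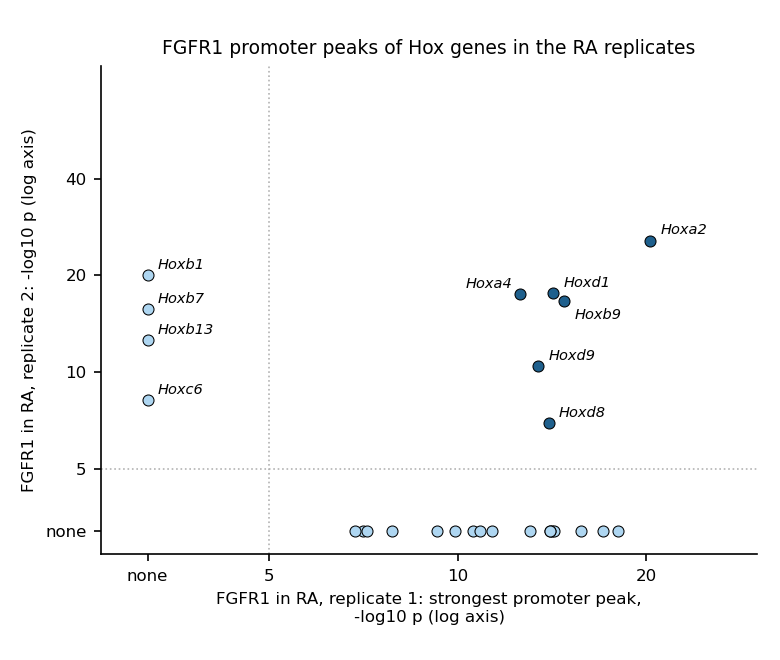
Each point is 1 of the 38 Hox genes drawn, where it had an FGFR1 promoter peak in RA, at the −log10 p of its strongest peak in replicate 1 (x axis, log scale) and in replicate 2 (y axis, log scale); the dotted lines mark the limit of 5, and genes without a peak sit at "none". The 6 named genes with a value on both axes are dark, 4 genes had a peak in replicate 2 only, and the points along the bottom had one in replicate 1 only.

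Replicate 1 alone had promoter peaks at 17 of the 39 Hox genes, and replicate 2 alone at 4. Of all 21951 genes, 11150 had one in replicate 1, 10898 in replicate 2 and 8669 in both. Among the 17, Hoxd11 had the highest −log10 p (18.02, 18 fragments), followed by Hoxc12 (17.06) and Hoxb5 (15.71), and Hoxc9 the lowest (6.85). The others were Hoxa3, Hoxa5, Hoxa10, Hoxa11 and Hoxa13, Hoxb3 and Hoxb4, Hoxc5, Hoxc8, Hoxc10 and Hoxc13, and Hoxd12 and Hoxd13. The 4 genes of replicate 2 alone were Hoxb1, Hoxb7, Hoxb13 and Hoxc6. At Hoxb1, which gives a hindbrain segment its identity, the −log10 p was 20.09 with 34 fragments and the summit was 39 bp upstream of the start. It was 15.74 at Hoxb7, 12.57 at Hoxb13 and 8.19 at Hoxc6. The peaks found in one library only were therefore not confined to low values, in either library. The background density was 4.16 fragments per kb in replicate 1 and 6.78 in replicate 2, so the library with fewer Hox peaks was the deeper one.

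The study's primer pair for Hoxa4 amplifies 140 bp from 317 to 456 bp upstream, and the peaks of both FGFR1 libraries from RA lay over it, while the RXR peak in LIF was 650 bp away. The pair for Hoxa2 could not be placed, since its reverse primer had no exact match in the assembly.

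RXR had promoter peaks at 16 Hox genes in LIF and at 7 in RA. Those in LIF included Hoxa2, Hoxa4, Hoxa5 and Hoxa13, Hoxb6 and Hoxb9, Hoxc5, Hoxc10, Hoxc12 and Hoxc13, and Hoxd1, Hoxd3, Hoxd8, Hoxd9 and Hoxd13. Those in RA were Hoxa5, Hoxa7 and Hoxa11, Hoxc8 and Hoxc13, and Hoxd1 and Hoxd13. There were 12 in LIF and not in RA (23.1% of all genes), 4 in both (19.4%) and 3, Hoxa7, Hoxa11 and Hoxc8, in RA and not in LIF (3.93%). At Hoxa2 the RXR peak in LIF had a −log10 p of 9.14 and 12 fragments and at Hoxa4 6.99 and 9 fragments, and no RXR peak was listed there in RA. Hoxa5 was the only Hoxa gene with an RXR promoter peak in both states. At Hoxa5, which acts in the neck and the lung, the −log10 p was 10.45 in LIF and 7.28 in RA, with summits 4 bp apart. At Hoxd13 RXR had 8.82 in LIF, 503 bp upstream of the start, and 13.65 in RA, 257 bp downstream.

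The 2 RXR libraries differed in depth, with 7.09 fragments per kb in LIF and 1.87 in RA. When the fragments and background of each peak in LIF were scaled down to the depth in RA and the limit was applied again, an alternative chosen after the data had been seen, 2 Hox genes kept a promoter peak in LIF (7.70% of all genes). Hoxd1 was one of them, with a −log10 p of 5.43. So RXR had more Hox promoters in LIF than in RA as deposited, 16 against 7, and fewer after this scaling, 2 against 7. Over all genes the order changed in the same way, from 42.6% in LIF against 23.4% in RA to 7.70% against 23.4%. The scaling matched the background density and no other property of the libraries. Each state had 1 RXR library, so the state of the cells and the library cannot be told apart.

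**Figure D5:**
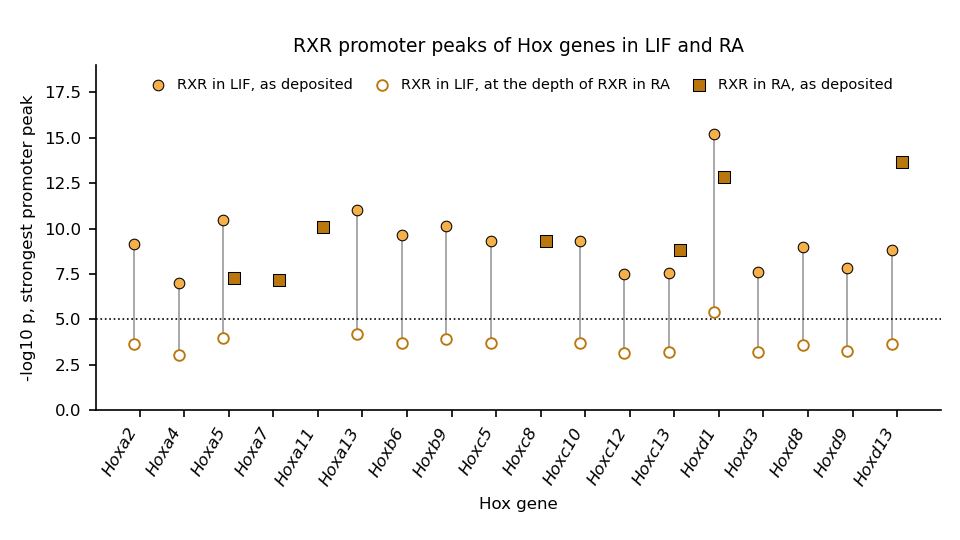
For each of the 38 Hox genes drawn that had an RXR promoter peak (x axis), the −log10 p of its strongest peak is shown as deposited in LIF (filled circles), after scaling to the depth of the library from RA (open circles), and as deposited in RA (squares); the dotted line is the limit of 5. Of the 15 genes with a filled circle, Hoxd1 stays above the line.

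Nur77 had promoter peaks at 9 Hox genes in LIF and at 11 in RA, in libraries of 4.98 and 3.82 fragments per kb. There were 4 in LIF and not in RA, Hoxb4, Hoxc6, Hoxc8 and Hoxd9 (11.5% of all genes). There were 5 in both, Hoxc5, Hoxc10, Hoxc12, Hoxd1 and Hoxd13 (14.1%), and 6 in RA and not in LIF, Hoxa5, Hoxa13, Hoxb5, Hoxc13, Hoxd4 and Hoxd11 (11.8%). The highest promoter values in LIF were at Hoxd1 and at Hoxd9, with a −log10 p of 12.43, and in RA at Hoxd4, with 11.49, and Hoxc12, with 10.42. No gene of the Hoxa cluster had a Nur77 promoter peak in LIF, and Hoxa5 (6.37) and Hoxa13 (9.26) had one in RA. At Hoxc12, Hoxd1 and Hoxd13 the peaks of both states overlapped, whereas at Hoxc5 and Hoxc10 they lay 700 bp apart. Of the 16 Nur77 peaks in the clusters in LIF, 6 overlapped one of the 22 in RA (37.5%, against 35.5% of the whole list). For RXR it was 6 of the 38 in LIF (15.8%, against 25.5%).

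H3.3 in RA had promoter peaks at 4 Hox genes. At Hoxc9, which specifies motor neurons of the thoracic cord, the −log10 p was 12.20 with 11 fragments. At Hoxc5 it was 10.22 with 8 fragments and at Hoxd9 7.67 with 7 fragments, and Hoxd1 had the 4 fragments given above. All 4 genes also had an FGFR1 promoter peak in RA replicate 1, as had 94.5% of all genes with H3.3 (14.6% of all genes had both), and the peaks overlapped at Hoxd1 and Hoxd9 but not at Hoxc5 and Hoxc9. Of all 8 H3.3 peaks in the clusters, 6 overlapped a peak of FGFR1 in replicate 1 (75.0%, against 71.0% of the whole list) and 1 a peak of replicate 2.

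RXR in LIF and FGFR1 in RA replicate 1 both had a promoter peak at 14 Hox genes, all of the 16 with RXR but Hoxb6 and Hoxd3, where 36.7% of all genes had both. These were 87.5% of the Hox genes with RXR in LIF, close to the 86.2% over all genes (8054 of 9343). At 10 of the 14 the peaks overlapped. The summits were at the same base at Hoxa2, 1 bp apart at Hoxd9, 5 bp at Hoxd1, 10 bp at Hoxa13 and Hoxc12, and 11 bp at Hoxa5. RXR in LIF and FGFR1 in both replicates from RA had a promoter peak at 7 genes (30.5% of all genes), which are all of the Hox genes marked in both replicates, a share that was 77.2% over all genes. With replicate 2 the RXR peaks overlapped at 3 of these, Hoxd1, Hoxd8 and Hoxd9, and at Hoxa2, Hoxa4 and Hoxb9 the summits were 555 to 911 bp apart. So which of the FGFR1 libraries is taken decides whether FGFR1 in RA and RXR in LIF lay at the same place at Hoxa2 and Hoxb9. Over the clusters, 22 of the 38 RXR peaks in LIF overlapped a peak of FGFR1 in replicate 1 (57.9%, against 47.9% of the whole list), and 5 overlapped one of replicate 2 (13.2%, against 24.7%).

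RXR and Nur77 in LIF had promoter peaks in common at 6 Hox genes, Hoxc5, Hoxc10, Hoxc12, Hoxd1, Hoxd9 and Hoxd13 (20.8% of all genes). The peaks overlapped at all of them but Hoxd13, with summits 3 to 24 bp apart. In LIF the peaks of the 3 factors formed 48 sites in the clusters, 39 with 1 factor, 8 with 2 and 1, at Hoxd1, with all 3. In RA they formed 87 sites, 66 with 1 of the 4 precipitated proteins, 15 with 2, 4 with 3 and 2 with all 4. Sites of 1 factor made up 81.3% of the Hox sites in LIF and 75.9% in RA, against 75.9% and 71.0% of the sites in the whole lists.

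Among the genes with promoter peaks in many lists, Hoxd13 had 6 lists. Besides the FGFR1 and RXR values above, Nur77 had a −log10 p of 9.31 in LIF and 7.89 in RA there, 549 and 565 bp downstream of the start, at the place of the FGFR1 peak in LIF. Hoxd9 had 5 lists in a pair of adjoining sites. The first held FGFR1 in both replicates, Nur77 in LIF and RXR in LIF (7.78), and the second held H3.3 (7.67), FGFR1 in replicate 1 (12.28) and RXR in LIF (7.84), with summits 579 to 585 bp downstream. Hoxc5 had 5 lists in part because one of its transcripts starts 647 bp downstream of the start of Hoxc10, a gene of the lumbar cord. The peaks upstream of Hoxc10 had a −log10 p of 10.02 for Nur77 in LIF, 9.32 for RXR in LIF and 14.06 for FGFR1 in replicate 1, and counted for both genes. The peaks at the other start of Hoxc5 were those of FGFR1 in replicate 1 (11.29) and H3.3 (10.22), which had summits 105 bp apart.

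Several lists also met within short distances at further genes. At Hoxa5, Nur77 in RA, FGFR1 in replicate 1 (13.05) and RXR in both states had summits between 490 and 514 bp downstream of the start. At Hoxa13, Nur77 in RA, RXR in LIF (11.04) and FGFR1 in replicate 1 (14.27) had them between 688 and 715 bp. These summits were in the coding sequence of both genes. At Hoxc12, Nur77 in RA and LIF (8.08), RXR in LIF (7.51) and FGFR1 in replicate 1 (8.68) had them between 526 and 548 bp. At Hoxc8 the RXR peak in RA (9.33) had its summit on the start itself and that of FGFR1 in replicate 1 (7.06) was 18 bp downstream. Hoxc13, which acts in hair and nails, had separate peaks of FGFR1 in replicate 1 on either side of its start (10.85 and 10.72), and RXR peaks in both states that overlapped by 89 bp.

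The remaining members had few peaks. Of the 10 genes with a promoter peak in 1 list, Hoxa3, Hoxa10 and Hoxb3 had it in FGFR1 in replicate 1, and Hoxb1, Hoxb7 and Hoxb13 in replicate 2. Hoxb6 and Hoxd3 had it in RXR in LIF, Hoxa7 in RXR in RA and Hoxd4 in Nur77 in RA. By paralogue group, FGFR1 in replicates 1 and 2 had 7 and 5 of the 12 genes of groups 1 to 4, 5 and 3 of the 11 genes of groups 5 to 8, and 12 and 3 of the 16 genes of groups 9 to 13. In both replicates there were 4, 1 and 2 genes. Groups 1 to 4 thus had the most genes in replicate 2 and groups 9 to 13 the most in replicate 1, so no single order along the clusters was seen. The genes with FGFR1 in both replicates had promoters with a median GC content of 63.1%, against 55.5% for all 39, 54.2% for the 11 with FGFR1 in no library from RA and 51.2% for all genes. The part that base composition has in these counts was not tested.

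Peaks in gene bodies and gaps included places with more lists than most promoters. Between Hoxa11 and Hoxa13, 7259 to 7299 bp downstream of the Hoxa13 start, 5 lists had a peak at the site whose sequence holds TGACGTCA. The −log10 p there was 10.42 for RXR in LIF, 10.29 for Nur77 in LIF, 9.62 for Nur77 in RA, 9.36 for FGFR1 in replicate 1 and 6.78 for H3.3. Between Hoxd3 and Hoxd1, at a promoter of Haglr, it was 16.47 for H3.3, 13.02 for FGFR1 in replicate 1, 9.80 for RXR in RA, 8.26 for Nur77 in RA and 8.04 for RXR in LIF. Lists from LIF and from RA thus met at both places between genes, and FGFR1 in replicate 2 had a peak at neither. In the coding sequence of Hoxb2, whose promoter had no peak, it was 16.80 for FGFR1 in replicate 1, 15.97 for Nur77 in RA, 11.49 for RXR in LIF and 9.92 for Nur77 in LIF. In the coding sequence of Hoxd3 it was 16.19 for FGFR1 in replicate 1, 11.51 for Nur77 in LIF and 11.41 for H3.3. In an intron of Hoxc11, whose promoter had no peak either, Nur77 in RA had 15.79 (15 fragments), with no other list at that site. RXR in LIF had a separate peak in the same gene body. In the Hoxa3 gene body both FGFR1 libraries had a peak, with 11.73 in replicate 1 and 18.15 in replicate 2, and so had RXR in LIF (9.95).

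The Hoxb13–Hoxb9 gap of 74009 bp, the longest of the clusters, held 24 peaks at 9 sites, and 14 of them contained a run of at least 20 alternating purines and pyrimidines. Over all clusters 18 of the 185 peaks (9.73%) did, 17 of them in the Hoxb cluster and 1 in Hoxc, and none of them lay in a Hox promoter. Over the whole lists the share was 1.26% in FGFR1 in RA replicate 2 and 21.1% to 51.7% in the other 7. The strongest peaks of several libraries were at these runs. At the gap sequence printed above the −log10 p was 36.37 for H3.3 (fold 17.7, 27 fragments), 24.30 for RXR in RA, 21.33 for FGFR1 in replicate 1, 12.75 for Nur77 in LIF and 9.87 for RXR in LIF. Between Hoxb9 and Hoxb8 it was 36.85 for FGFR1 in LIF (30 fragments), 30.86 for FGFR1 in replicate 1 and 17.84 for RXR in RA. At another run of the Hoxb13–Hoxb9 gap, 37149 to 37196 bp downstream of the Hoxb13 start, Nur77 had its highest values in both states, 14.27 in LIF (14 fragments) and 16.48 in RA (16 fragments). At a further run there, 22370 bp downstream of that start, RXR in LIF had its highest, 15.92 (18 fragments). The highest values of the Hox clusters for H3.3, for RXR in both states, for Nur77 in both states and for FGFR1 in LIF and in replicate 1 were therefore at runs, and that of replicate 2 was not. A strong peak without a run in the same gap was that of FGFR1 in replicate 1 with 23.04, which overlapped or adjoined peaks of RXR in LIF (9.37) and of replicate 2 (5.78). The part that these runs have in the peaks was not tested.

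Retinoid receptor repeats were looked for with the hexamer AGGTCA, the hexamer AGTTCA, the hexamer GGGTCA and the hexamer GGTTCA, in any pairing, as direct repeats with a spacer of 1, 2 or 5 bases, on both strands. None of the 39 Hox promoters, taken as 1000 bp on either side of the gene start, held one. Of the 21938 promoters of all genes that could be read, 1.21% held a repeat with a spacer of 1 base, 1.31% of 2 and 0.588% of 5. In the whole clusters there were 3 with a spacer of 1, 2 with a spacer of 2 and 6 with a spacer of 5. Per Mb this was 5.64, 3.76 and 11.3, against 6.11, 10.1 and 3.41 in the genome. None of these 11 repeats lay in a peak of any list, and the nearest peak was 381 to 5233 bp away with a median of 3004 bp. In the genome 0.703% of the repeats with a spacer of 1 lay in a peak, 0.229% of those with 2 and 0.646% of those with 5. Besides those printed, DR5 repeats lay 7024 bp downstream of the Hoxb1 start and in the Hoxb13–Hoxb9 gap. No match inside a peak says only that these letters are absent there.

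Of the single words, the Nur77 response element AAAGGTCA, which contains one of the hexamers, occurred 29 times in the clusters and once in a peak, that of FGFR1 in replicate 2 at Hoxa2. In the genome 0.202% of its matches lay in a peak. Of Hox promoters 3 held it (8.86% of all promoters). TGACGTCA occurred at 2 places in the clusters, both in peaks, and in the genome 4.86% of its matches lay in a peak. The one near Hoxa13 was under the peaks of Nur77 in RA and of FGFR1 in replicate 1, and 5 of its 8 bases were under that of Nur77 in LIF. That match was in no Hox promoter, and the other match alone put the word in 2 Hox promoters (4.02% of all promoters). The word AGNGGGCGC from the core of the CTCF motif occurred 17 times and lay in a peak at 2 places, in RXR in LIF at Hoxa4 and in FGFR1 in replicate 2 at Hoxd8, with 12.4% of its matches in the genome in a peak. It was in 4 Hox promoters (10.8% of all promoters).

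The genes around and above the Hox genes were read in the same way. Of 21 embedded or flanking genes looked for, 19 were found. Mtx2, a mitochondrial gene beside the Hoxd cluster, had a promoter peak in 7 lists, and Skap2, beside the Hoxa cluster, in 4. Evx1, Evx2, Hottip and Hotair had none in any list. Of 17 genes for Hox cofactors and upstream regulators, FGFR1 had a promoter peak at 4 in LIF (23.5%, against 17.0% of all genes). In RA it had one at 14 in replicate 1 (82.4%, against 50.8%) and at 9 in replicate 2 (52.9%, against 49.6%), and these 9 had one in both (39.5% of all genes). H3.3 had one at 4 (23.5%, against 15.5%). Nur77 had one at 2 in LIF (11.8%, against 25.6%) and 4 in RA (23.5%, against 25.9%), and RXR at 6 in LIF (35.3%, against 42.6%) and 4 in RA (23.5%, against 23.4%). The retinoic acid receptor genes Rara, Rarb and Rarg were among the 9, Rara and Rarb also with RXR in both states, as was Pknox1, which had a peak in 7 lists.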

How the data were processed

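Peak lists of 8 ChIP-seq libraries were analysed, and groups were read from the sample titles. The authors aligned reads with Bowtie 1.0 to mm10, discarded reads that matched more than 1 place, and ran MACS2 on each library by itself at a p limit of 1e-05, without a control library. The deposited fold is a ratio of pileup to background with a pseudocount in both, the −log10 p and −log10 q deposited beside it are those of the summit, and the deposited summit position is an offset from the peak start. Because of the discarded reads, repeats and near-identical Hox sequence lack reads that matched more than 1 place.

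Fragments at the summit (a whole number) and background were solved from each fold and −log10 p with the Poisson tail, within 0.002 of the deposited −log10 p, for 100% of the peaks. The lowest background divided by the fragment length gave the depth. Counts of fragments and peaks are given without an error between libraries, except for FGFR1 in RA. Scripts were tested on simulated data.

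Promoters were 1000 bp either side of any GENCODE M21 transcript start, on GRCm38. The clusters ran from the first gene start to the last gene end, with 5 kb on either side. Peaks overlapped where they shared 1 bp. Runs were alternating purines and pyrimidines of at least 20 bp. Sequence came from the assembly and primers from the study's primer list. No test was made, since 6 of 7 groups had 1 library and genes of a cluster are not replicates. FGFR1 in RA is given as mean and SD of 2 libraries, which may differ only technically. All 39 genes were counted. The values of 1 gene and the sequence of 1 other peak are not reported here. Full values were given for genes with FGFR1 in LIF or in both RA libraries, with peaks in 5 or more lists, with H3.3 or with primers, and for the 3 strongest peaks of each list. Genes and lists were chosen with earlier results of these data known. Python 3.11.15, numpy 2.4.6, pandas 2.3.3, scipy 1.17.1 and matplotlib 3.10.9 were used.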

Additional observations from a re-analysis of the deposited data

How the results depend on the processing

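Of 110 values under alternative settings, 89 stayed within 1.5 times the reported value (for the FGFR1 mean, within 1 SD) and 21 were lower by more. The counts of Hox genes with a promoter peak, as reported, were 3, 16 and 9 in LIF (FGFR1, RXR and Nur77) and 24, 11, 7, 11 and 4 in RA (FGFR1 replicates 1 and 2, RXR, Nur77 and H3.3), with 7 in both FGFR1 replicates. The shares in brackets below are those of all genes at the same setting. With a −log10 p of at least 10, Nur77 in LIF had 5 (12.4%), RXR in LIF 5 (25.4%) and FGFR1 in LIF 1 (9.81%). In RA at that limit H3.3 had 2 (7.19%), Nur77 3 (14.1%) and RXR 3 (10.9%). With the strongest 10634 peaks of each list Nur77 in LIF had 2 (10.5%), RXR in LIF 2 (14.9%) and RXR in RA 3 (12.8%). Nur77 in RA then had 0 (8.40%), FGFR1 replicate 1 had 4 (18.1%) and both FGFR1 replicates had 1 (15.1%). The 4 genes of FGFR1 replicate 1 were 10.3% of the Hox genes, so its share then lay below that of all genes. At the depth of the shallowest library Nur77 and RXR in LIF had 0 each and FGFR1 in LIF had 1, Nur77 in RA had 1, and FGFR1 in RA had 15 in replicate 1, 3 in replicate 2 and 2 in both. At the depth of the shallower state, chosen after the data had been seen, RXR in LIF had 2 (7.70%). With promoters of 500 bp H3.3 had 2 (14.3%). Without one or the other FGFR1 replicate, the mean of 17.5 became 11 or 24. A q limit, starts of genes only, summits in the promoter, 20 bp of overlap, leaving out peaks with runs, and other cluster edges moved no count by more than 1.5 times. The q limit changed the count over all genes in no list, and no peak with a run lay in a Hox promoter. Neither setting could therefore move a count of Hox genes. No paired analysis was possible because the groups compared share fewer than 2 replicate numbers. Most peaks rest on fewer than 20 fragments, so a peak missing from a list may lie below detection and does not show an absence of binding. Why single peaks were missing was not tested.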
